A study of Mus musculus with 8 samples.

Results

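Endothelial genes were followed here as a marker panel, from pan-endothelial through arterial, capillary and venous to lymphatic, in RNA-Seq of sorted muscle stem cells (MuSCs) from mice fed a vitamin A-free (VA-free) diet or control (CTRL) chow. The panel was a list of 36 named genes, 19 pan-endothelial, 5 arterial, 5 capillary, 4 venous and 3 lymphatic, and it was drawn up with the diet contrast of these libraries already known. A gene was found for 35 of the 36 symbols, and no gene of the Ensembl 96 annotation carried the symbol Eng2. All 35 passed the filter on low counts, out of 17997 genes that did so among 36047 annotated. Because the list was chosen with this contrast in view, the diet values of the members are given as a description, with an error and without a p-value.

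All mice were Pax7-CreERT2, Rosa26-nTnG males (Pax7-nTnG) of 5 to 6 months, in which tamoxifen, given in 5 daily injections followed by 5 days of recovery, switches cells with Pax7-driven Cre from a nuclear tdTomato to a nuclear GFP. Cre is driven by the Pax7 locus in this model, and the sort took DAPI-negative, GFP-positive cells without an antibody against an endothelial protein. The VA-free feed was a custom diet, and the control was ordinary mouse chow. The VA-free diet was eaten for 8 weeks by 3 mice and CTRL chow by 2 mice, and both groups received tamoxifen. RNA of each animal's gastrocnemius and quadriceps MuSCs was divided over spin columns into technical replicates A and B, which left 4 VA-free libraries (1B, 2A, 3A, 3B) and 4 CTRL libraries (1A, 1B, 2A, 2B).

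Endothelial cells line every blood and lymph vessel. They share junction proteins such as VE-cadherin and PECAM1 and the receptors for VEGF and angiopoietins, and they differ along the vascular tree, with Notch targets and gap junction connexins in arteries, lipid and water transport genes in capillaries, and leukocyte-binding selectins and the chemokine receptor ACKR1 in veins and venules. In skeletal muscle the capillaries run beside the myofibers, and quiescent MuSCs lie close to them.

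Between 44831232 and 88650428 estimated counts were deposited per library. The libraries of CTRL mouse 2 differed most from each other, before any diet was compared. Over all genes with a mean of at least 10 counts in the pair, the median absolute log2 ratio of CTRL 2A to CTRL 2B was 0.70. It was 0.29 for CTRL 1A to 1B and 0.14 for VA-free 3A to 3B. This ratio does not show which library of the pair stood apart. The 10 MuSC markers that were read had a summed level of 5318 to 5864 CPM (counts scaled to the library total, after TMM scaling between libraries) in the VA-free libraries and 2176 to 3298 CPM in the CTRL libraries. None of the 10 was at 0 in either diet, and 9 of the 10 were called higher on the VA-free diet, as were 18.9% of all genes. These markers show that MuSC RNA was present and not how pure the sort was. The 35 panel members summed to 2166 to 2735 CPM in the VA-free libraries and 5709 to 11923 CPM in the CTRL libraries, there above the MuSC marker sum. The lists differ in length and genes, so the sums are not shares of cells. In RNA from a whole sorted population, fewer endothelial cells and less endothelial RNA per cell cannot be told apart.

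Nearly the whole panel was lower on the VA-free diet. In the edgeR fit across all genes, 30 of the 35 members were called lower at an adjusted p-value under 0.05, where 22.5% of all genes were, and 1 member was called higher, where 18.9% of all genes were. Every VA-free mouse was below both CTRL mice for 32 members (32.3% of all genes) and above both for 1 (31.0% of all genes). Every VA-free library was below every CTRL library for 27 members (21.4% of all genes) and above for 1 (19.9% of all genes). Since this contrast chose the members, these counts describe the list and nothing is read from them. A log2 fold change (VA-free over CTRL) below -3 was measured for 24 members and for 5.13% of all genes. The median log2 fold change was -3.54 over the members, or 8.60% of the control level, and 0.00 over all genes tested. Without CTRL 2A the members' median was -3.70 with 32 called lower (21.6% of all genes), and without CTRL 2B it was -3.41 with 26 called lower (15.1% of all genes).

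Among the members, the class medians fell from arterial through capillary to venous, and the lymphatic median lay closest to 0. Venous members had a median log2 fold change of -5.94 (range -6.85 to -3.46), capillary members -4.24 (-5.14 to -1.49), arterial members -3.86 (-7.30 to -0.25), pan-endothelial members -3.53 (-4.92 to -0.44) and lymphatic members -0.91 (-1.56 to 1.17). With 3 to 5 members in each class other than the pan-endothelial one, the ranges of arterial, capillary and venous genes overlapped. The order did not hold for the further genes described below (arterial -1.52, capillary -3.36, venous -1.20, lymphatic -2.61). With the trend with gene length removed, the arterial median (Gja4, -3.71) lay below the capillary one (Ly6c1, -3.50). As a level per length in the CTRL libraries, the capillary class was the most abundant, at a sum of 2375 to 6390 TPM (transcript abundance corrected for length). The sums there were 260 to 598 TPM for venous, 100 to 174 TPM for arterial and 48.2 to 68.7 TPM for lymphatic genes. In the VA-free libraries, the same sums were 533 to 688 TPM, 8.81 to 17.2 TPM, 14.5 to 19.3 TPM and 140 to 170 TPM.

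**Figure D1:**
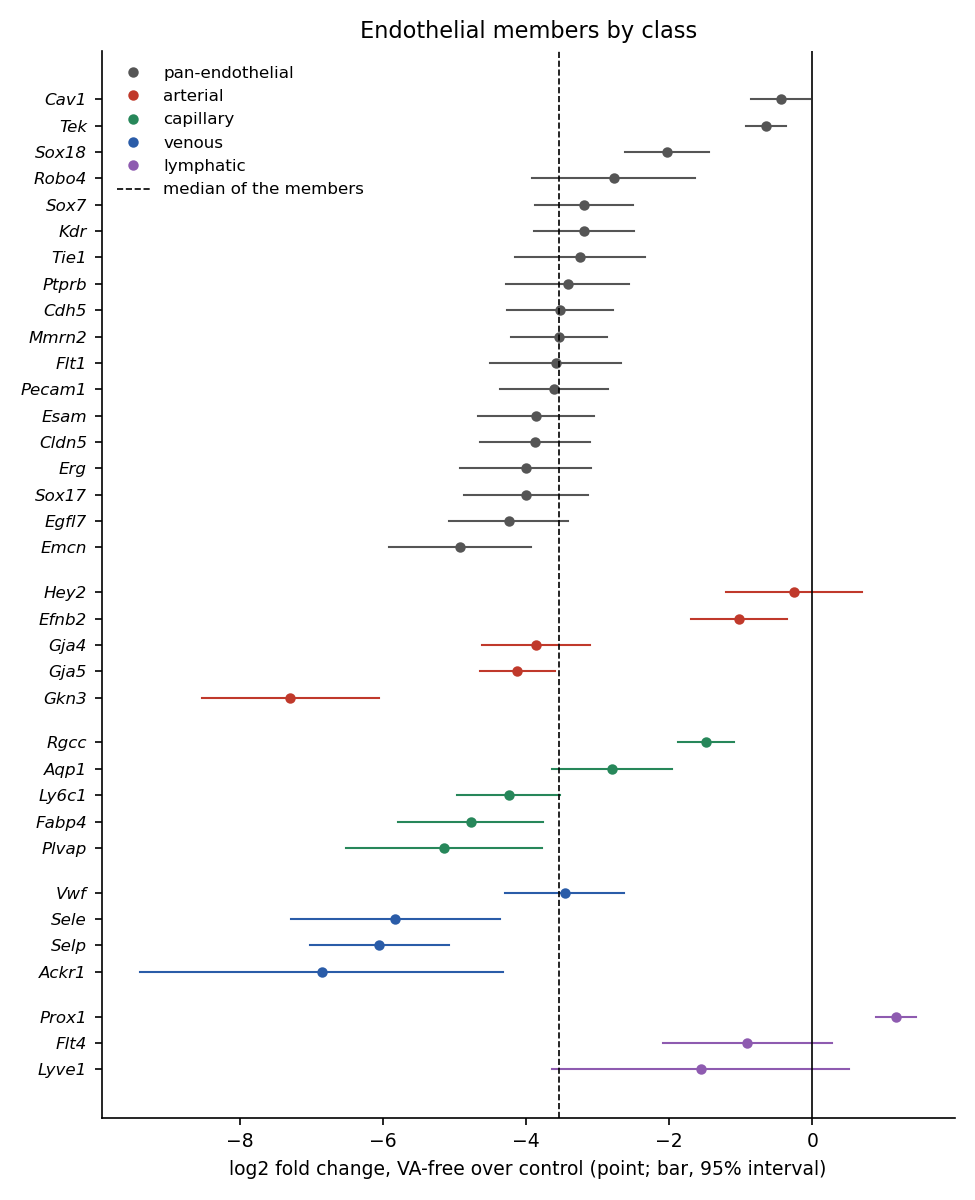
Log2 fold change of the 35 members, VA-free over CTRL, from the fit across all genes (x axis; point, estimate; bar, 95% interval), with members on the y axis grouped by class; the solid line marks 0 and the dashed line the members' median of -3.54. Gkn3 and the venous genes Ackr1, Selp and Sele lie far to the left of the median, and Prox1 lies to the right of 0.

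Among pan-endothelial genes, the junction and surface proteins Pecam1, Emcn, Esam and Cldn5 were at 3.30% to 8.20% of the control level. Pecam1, an adhesion molecule of endothelial junctions (chromosome 11, 106654217 to 106750628), was at 30.2, 44.3, 39.1 and 38.0 CPM in the VA-free libraries (1B, 2A, 3A, 3B) and at 622, 589, 262 and 357 CPM in the CTRL libraries (1A, 1B, 2A, 2B), the order used for all members that follow. The VA-free libraries lay close together and far below all CTRL libraries, of which the mouse 1 pair was higher than the mouse 2 pair. Per mouse it was at 38.1 ± 6.81 CPM in the 3 VA-free mice and 465 ± 231 CPM in the 2 CTRL mice (mean and SD), and its log2 fold change was -3.61 ± 0.32 (SE). Emcn, a sialomucin that is rich in capillaries and veins (3, 137341067 to 137432185), had the largest difference of the class, with 4.67, 7.38, 4.60 and 4.13 CPM in the VA-free libraries and 235, 220, 77.1 and 121 CPM in the CTRL libraries, in the same order. Its log2 fold change was -4.92 ± 0.42 and the diets were apart in all libraries. Esam, a second tight-junction adhesion molecule, was at 14.5, 23.2, 19.8 and 19.2 CPM against 354, 385, 121 and 239 CPM (-3.86 ± 0.34). Cldn5, the claudin that seals endothelial tight junctions, was at 5.18, 7.79, 7.18 and 10.2 CPM against 132, 142, 48.5 and 102 CPM (-3.88 ± 0.32). Neither gene had a VA-free library above its lowest CTRL library.

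The class also held a secreted protein and several transcription factors. Egfl7, a matrix protein made by endothelial cells (2, 26580014 to 26593120), was at 8.29, 16.4, 11.1 and 11.8 CPM on the VA-free diet and at 305, 270, 169 and 164 CPM on CTRL chow, a log2 fold change of -4.24 ± 0.35. Sox17, a transcription factor needed for arterial fate, was at 3.58, 5.60, 6.06 and 7.20 CPM against 116, 104, 48.9 and 66.9 CPM (-4.00 ± 0.36). For both, CTRL 2A or 2B was the lowest CTRL library and still several times above every VA-free library. The related Sox7 and Sox18, which act redundantly with Sox17, had log2 fold changes of -3.19 ± 0.29 and -2.03 ± 0.25, and Erg, the ETS factor that maintains endothelial identity, had -4.00 ± 0.38. The other members of the class, Cdh5 (VE-cadherin), Kdr and Flt1 (the VEGF receptors), Ptprb (the phosphatase VE-PTP), Mmrn2, Robo4 and Tie1, had log2 fold changes from -3.58 for Flt1 to -2.77 for Robo4. Without CTRL mouse 1, the difference between the diets was smaller by more than 1.5-fold, on the linear scale, for Pecam1 (-2.99), Flt1 (-2.95), Tie1 (-2.45), Emcn (-4.14), Esam (-3.21), Erg (-3.40), Sox17 (-3.40) and Robo4 (-1.94). Without CTRL 2B, Tie1 (-2.88), Robo4 (-2.42) and Sox18 (-1.75) were no longer called, nor were Tie1 (-2.78) and Robo4 (-2.33) with the first library of each mouse.

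Cav1 and Tek stood closest to the control level within the class. Cav1, the coat protein of caveolae, which many cell types outside the endothelium also make (6, 17306335 to 17341452), was at 1109, 1392, 1190 and 1146 CPM on the VA-free diet and 1898, 1838, 1363 and 1553 CPM on CTRL chow. VA-free 2A was above CTRL 2A, so that the libraries overlapped, and the log2 fold change was -0.44 ± 0.17 with an interval from -0.85 to -0.03 and no call after adjustment. It was called without CTRL mouse 2 (-0.65) and without CTRL 2A (-0.50), with DESeq2 (-0.45) and with 8 libraries as separate samples (-0.46). Per length, Cav1 was the most abundant member on the VA-free diet, at a mean of 1477 TPM. On CTRL chow, where Fabp4 was higher, it was at 1364 TPM, so that TPM gave the opposite order of the diets to CPM. On that scale the median of all genes was itself shifted upward on the VA-free diet. Tek, the angiopoietin receptor TIE2 (4, 94739289 to 94874976), was at 122, 132, 133 and 143 CPM against 222, 207, 206 and 193 CPM. Its libraries did not overlap, and its log2 fold change of -0.65 ± 0.12 left 63.7% of the control level. With TPM it was -0.15 or -0.16, by pseudocount, and not called. Tie1, the orphan partner of Tek on the same chromosome, was named for this contrast after its values were seen. It was at 14.1, 22.4, 16.7 and 26.4 CPM against 216, 301, 25.6 and 187 CPM (-3.24 ± 0.38), and its only low CTRL library, 2A, lay among the VA-free ones.

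Arterial members covered the widest range of the panel. Gkn3, a gastrokine that marks arterial endothelium in mouse brain (6, 87383256 to 87388935), was at 0.213, 0.143, 0.220 and 0.644 CPM on the VA-free diet, from 20, 8, 10 and 32 estimated counts, and at 61.7, 55.9, 40.8 and 18.3 CPM on CTRL chow. Its log2 fold change of -7.30 ± 0.52, or 0.636% of the control level, was the lowest of all members and had rank 56 from the lowest of all genes tested. It was -6.63 without CTRL mouse 1 and -7.89 without VA-free mouse 3, whose library 3B held the highest of the VA-free values. Gja4 and Gja5, the arterial connexins 37 and 40, differed by less than Gkn3. Gja4 was at 1.43, 2.56, 3.77 and 2.35 CPM against 36.7, 36.0, 27.7 and 35.7 CPM (-3.86 ± 0.32), and Gja5 at 1.79, 2.24, 2.42 and 2.92 CPM against 36.6, 48.2, 34.0 and 39.0 CPM (-4.12 ± 0.22). All VA-free libraries were below all CTRL libraries for both.

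Efnb2 and Hey2 were the arterial members with small differences. Efnb2, the ephrin ligand that separates arteries from veins and is made by other cell types too, was at 17.6, 19.0, 16.4 and 22.2 CPM against 40.4, 61.3, 11.4 and 38.5 CPM. CTRL 2A lay below every VA-free library while the 3 remaining CTRL libraries lay above them, and the log2 fold change was -1.02 ± 0.28. This call was lost without any one of the VA-free mice 1, 2 or 3 (-0.98, -1.02 and -1.05), without CTRL mouse 1 (-0.40) and without CTRL 2B (-0.73). It was also lost with 8 libraries as separate samples (-1.01), with the first library of each mouse (-0.55) and with TPM (-0.29 and -0.31). Hey2, a Notch target of arterial endothelium, was low throughout, at 1.85, 2.63, 1.26 and 1.43 CPM against 2.02, 1.54, 1.35 and 4.25 CPM, with overlapping libraries. Its log2 fold change of -0.25 ± 0.40 had an interval from -1.20 to 0.70, and it turned to 0.07 without CTRL mouse 2 and to 0.32 without CTRL 2B, the highest library.

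Per length, capillary members were among the most abundant of the panel on CTRL chow, where Fabp4 had a mean of 2180 TPM, Ly6c1 of 1009 TPM and Rgcc of 739 TPM. Fabp4, a fatty acid chaperone of capillary endothelium and of adipocytes (3, 10204088 to 10208576), was at 44.8, 57.6, 47.1 and 44.4 CPM in the VA-free libraries and 2037, 1879, 494 and 933 CPM in the CTRL libraries. The VA-free values lay within a narrow band, whereas the CTRL values spread widely and the mouse 1 pair was the higher one. The log2 fold change was -4.77 ± 0.43, and -3.82 without CTRL mouse 1. Plvap, which forms the diaphragms of fenestrae and caveolae, was at 11.7, 33.7, 16.8 and 17.8 CPM against 1127, 979, 336 and 467 CPM (-5.14 ± 0.58; -4.22 without CTRL mouse 1), and VA-free 2A was the highest VA-free library. Ly6c1, a GPI-anchored surface antigen of capillary endothelium, was at 23.2, 32.0, 32.5 and 31.9 CPM against 707, 719, 321 and 447 CPM (-4.24 ± 0.30). Ly6c1 has close paralogs whose reads the estimation may have shared out among them. Adipocyte markers were near 0, and the 6 markers summed to 0.233 to 0.564 CPM on the VA-free diet and 0.541 to 1.20 CPM on CTRL chow, and Lep was at 0 in every library. Rgcc, a cell cycle regulator that is also made outside the endothelium, was at 148, 194, 159 and 160 CPM against 538, 482, 593 and 289 CPM, without overlap, and kept 35.7% of the control level (-1.49 ± 0.16). Aqp1, the water channel, had a log2 fold change of -2.80 ± 0.35.

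Venous members were led by the receptors that guide leukocytes across venules. Ackr1, a chemokine-binding receptor of venular endothelium (1, 173331886 to 173333750), was at 0.437, 2.36, 0 and 0.0805 CPM on the VA-free diet, from 41, 132, 0 and 4 estimated counts. It was at 132, 125, 94.4 and 44.3 CPM on CTRL chow, from 6669, 5492, 4538 and 2388 counts. A count of 0 in VA-free 3A allows up to 3 counts, or 0.0661 CPM, from counting error alone. The log2 fold change of -6.85 ± 1.07 had the widest interval of the panel, from -9.39 to -4.32, and was -8.66 without VA-free mouse 2, -6.21 without VA-free mouse 3 and -6.24 without CTRL mouse 1. Selp, P-selectin, was at 5.24, 6.78, 5.95 and 7.53 CPM against 571, 598, 266 and 221 CPM, with a log2 fold change of -6.05 ± 0.41 and 1.51% of the control level. Sele, the inducible E-selectin whose gene lies beside Selp on chromosome 1, was at 0.523, 1.79, 1.12 and 0.785 CPM against 85.9, 87.4, 21.0 and 42.5 CPM (-5.83 ± 0.61). For both selectins the highest VA-free library lay far below the lowest CTRL library. Without CTRL mouse 1 the values were -5.21 for Selp and -4.87 for Sele, and Sele was -6.41 without CTRL mouse 2.

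Vwf, the von Willebrand factor of venous endothelium and platelets (6, 125546774 to 125686679), differed least within the venous class. It was at 17.4, 28.6, 19.4 and 22.6 CPM on the VA-free diet and 229, 446, 59.0 and 251 CPM on CTRL chow, where CTRL 1B was several times CTRL 2A. Its log2 fold change was -3.46 ± 0.35, or 9.08% of the control level, and -2.79 without CTRL mouse 1. Selp and Vwf are both stored in platelets as well. Of the 7 platelet markers 5 passed the filter and 1 was called lower, near the 22.5% of all genes, and their sum was 7.14 to 11.7 CPM on the VA-free diet and 15.5 to 26.7 CPM on CTRL chow. Their part in the Selp and Vwf values was not tested.

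Lymphatic members did not move together. Lyve1, a hyaluronan receptor of lymphatic endothelium and some macrophages, rested on few counts, 64, 102, 3 and 9 in the VA-free libraries and 65, 177, 145 and 120 in the CTRL libraries. At 0.683, 1.83, 0.0661 and 0.181 CPM against 1.29, 4.01, 3.02 and 2.23 CPM its libraries overlapped, with a log2 fold change of -1.56 ± 0.88. Flt4, the receptor for VEGF-C, was at 1.85, 5.50, 2.29 and 2.52 CPM against 7.86, 7.14, 0.0624 and 8.68 CPM (-0.91 ± 0.50), and CTRL 2A, with 3 counts, was lower than every VA-free library. Neither was called, although without VA-free mouse 2 both were (-2.64 for Lyve1 and -1.50 for Flt4), as was Flt4 without CTRL 2A (-1.34). Without CTRL 2B the value of Flt4 was -0.27. Prox1, the homeobox factor that sets lymphatic identity and that MuSCs also make (1, 190118035 to 190170714), was the single member called higher. It was at 448, 479, 422 and 442 CPM on the VA-free diet and 182, 198, 214 and 224 CPM on CTRL chow, with no overlap and a log2 fold change of 1.17 ± 0.12, or 225% of the control level. The 10 MuSC markers had a median log2 fold change of 1.18, and their part in the Prox1 value was not tested.

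**Figure D2:**
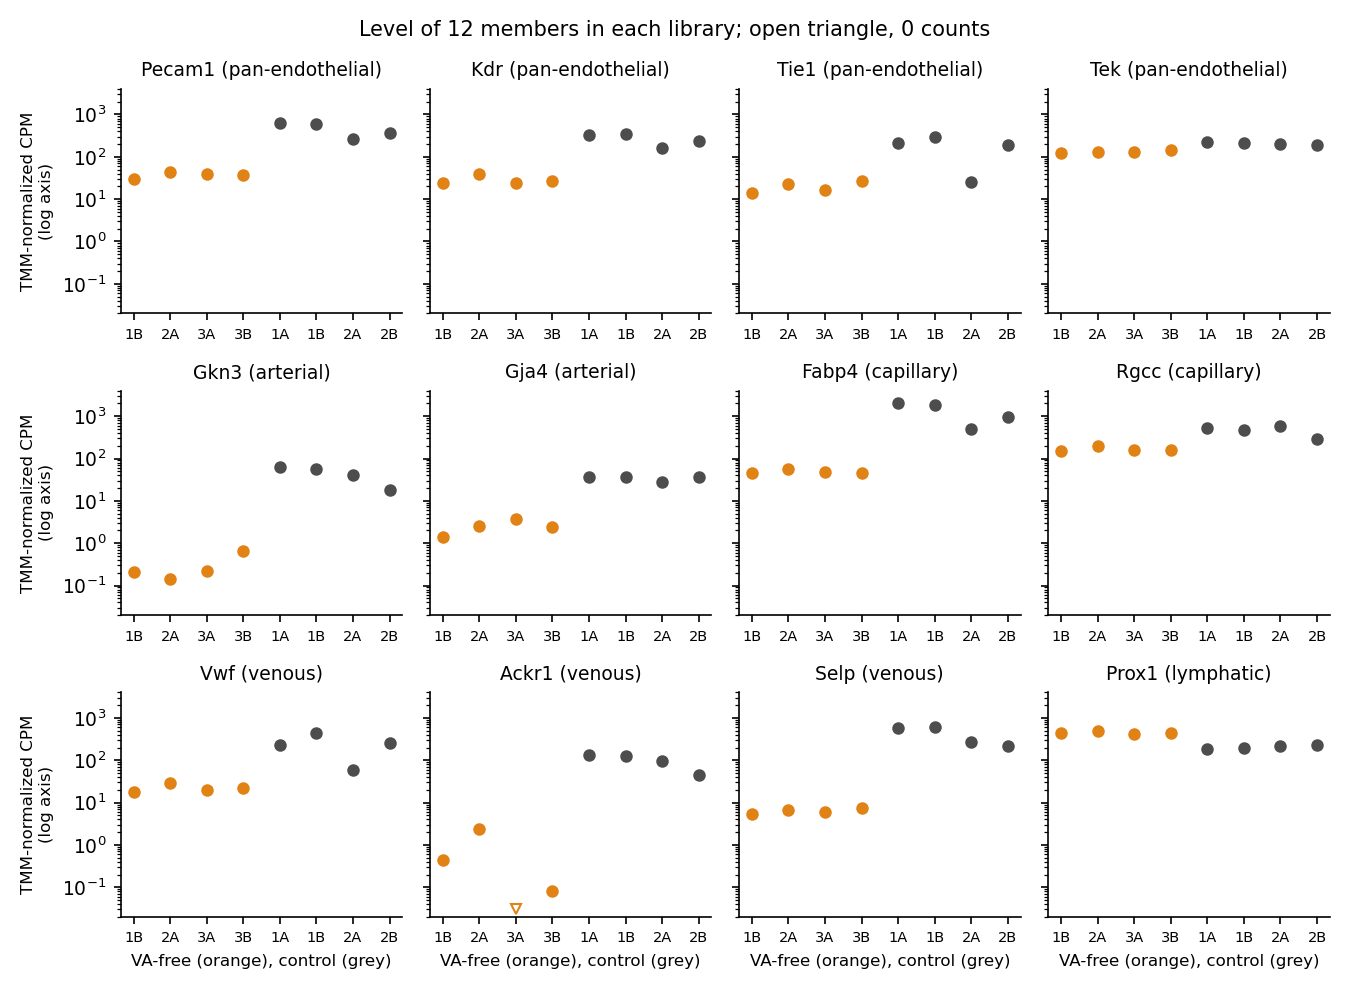
TMM-normalized CPM (y axis, log scale) of 12 members in each library (x axis; orange, VA-free 1B, 2A, 3A, 3B; grey, CTRL 1A, 1B, 2A, 2B), 1 point per library. Ackr1 in VA-free 3A is drawn as an open triangle at the bottom because its count was 0; Prox1 is the only panel with the orange points above the grey ones, and in the Tie1 panel CTRL 2A, at 25.6 CPM, lies among them.

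Promoter sequences were looked up for the members because ETS factors such as Erg and Fli1 bind a GGAA core at many endothelial promoters. RefSeq promoters of the GRCm38.p6 build, from 250 bases before to 50 bases after a start, were found for 23 of the 36 members, 30 promoters in all. The letters AGGAAG, searched on both strands as AGGAAG or CTTCCT, were in 15 of the 30 promoters and in 35.4% of 32851 promoters of all genes. A SOX motif searched as AACAAT or ATTGTT was in 3 of the 30 member promoters and 10.7% of all, and a GATA motif searched as AGATAA or TTATCT in 4 of the 30 (13.3%) and 11.2% of all. Such a match is a description of letters and not a bound site. The 5 promoters below belong to the members with the 3 lowest log2 fold changes (Gkn3, Ackr1 and Selp), to Emcn as the lowest pan-endothelial gene and to Tek as the angiopoietin receptor, at 63.7% of its control level; capitals mark AGGAAG or CTTCCT, and each is written 5′ to 3′ on the gene's strand.
Gkn3, chr6:87388886-87389185 (-): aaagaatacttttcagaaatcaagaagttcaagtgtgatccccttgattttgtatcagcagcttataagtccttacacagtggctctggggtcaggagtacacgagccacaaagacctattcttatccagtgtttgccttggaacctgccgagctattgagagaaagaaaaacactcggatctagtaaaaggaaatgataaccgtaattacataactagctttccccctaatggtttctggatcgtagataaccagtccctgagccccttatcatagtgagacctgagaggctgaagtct
Ackr1, chr1:173333454-173333753 (-): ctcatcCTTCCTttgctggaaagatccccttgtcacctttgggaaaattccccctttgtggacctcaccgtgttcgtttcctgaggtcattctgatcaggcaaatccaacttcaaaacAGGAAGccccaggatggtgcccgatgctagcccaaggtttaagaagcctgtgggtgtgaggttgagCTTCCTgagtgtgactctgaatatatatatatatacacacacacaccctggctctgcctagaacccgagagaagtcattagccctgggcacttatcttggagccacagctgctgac
Selp, chr1:164115014-164115313 (+): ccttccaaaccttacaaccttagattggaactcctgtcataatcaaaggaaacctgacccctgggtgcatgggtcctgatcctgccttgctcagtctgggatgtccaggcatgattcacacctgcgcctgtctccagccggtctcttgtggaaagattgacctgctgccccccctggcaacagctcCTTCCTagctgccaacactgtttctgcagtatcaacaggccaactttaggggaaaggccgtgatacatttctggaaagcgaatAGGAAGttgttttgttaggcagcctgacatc
Emcn, chr3:137340828-137341127 (+): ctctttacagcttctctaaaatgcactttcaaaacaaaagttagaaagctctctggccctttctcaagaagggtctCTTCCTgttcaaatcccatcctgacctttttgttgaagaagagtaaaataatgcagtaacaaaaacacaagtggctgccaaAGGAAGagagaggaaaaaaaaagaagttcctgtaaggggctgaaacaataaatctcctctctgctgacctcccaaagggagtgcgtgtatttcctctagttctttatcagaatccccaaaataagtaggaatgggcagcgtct
Tek, chr4:94739039-94739338 (+): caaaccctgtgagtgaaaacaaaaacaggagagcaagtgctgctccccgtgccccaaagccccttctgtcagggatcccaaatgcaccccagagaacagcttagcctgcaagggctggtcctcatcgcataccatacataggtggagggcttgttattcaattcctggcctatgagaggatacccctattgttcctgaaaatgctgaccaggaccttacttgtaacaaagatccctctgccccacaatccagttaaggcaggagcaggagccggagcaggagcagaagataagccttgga

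Ackr1 held 3 ETS matches, Selp and Emcn 2 each, and Gkn3 and Tek none. Members with at least 1 matching promoter numbered 14 of 23 (60.9%), beside 38.4% of 27025 genes. Their log2 fold changes ran from -6.85 (Ackr1) to -0.44 (Cav1), and those of the 9 without a match from -7.30 (Gkn3) to 1.17 (Prox1). These comparisons are given without a test.

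Whether the members shared a single percentage of the control level was examined next, from the fitted values and their intervals. The precision-weighted common log2 fold change of the 35 members was -1.94, or 26.1% of control, and it lay inside the 95% interval of 4 members, Flt4, Lyve1, Robo4 and Sox18. The intervals of 25 members lay wholly below it and those of 6 wholly above, so no single percentage lay within the intervals of all members. Members with the smallest errors, Tek and Prox1 (SE 0.12 each), Rgcc (0.16) and Cav1 (0.17), weigh most in this common value. Around the median of -3.54 the intervals of 19 members included the value. Those 19 held 14 pan-endothelial genes as well as Aqp1, Gja4, Ly6c1, Lyve1 and Vwf. Wholly below it were Ackr1, Emcn, Fabp4, Gja5, Gkn3, Plvap, Sele and Selp, and wholly above it were Cav1, Efnb2, Flt4, Hey2, Prox1, Rgcc, Sox18 and Tek. The intervals rest on 5 mice, and with 2 CTRL mice the spread on that diet comes from a single difference between animals.

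Library by library, the members held a wider spread on the VA-free diet than among the CTRL libraries. The median member was at 6.81%, 10.9%, 7.95% and 8.41% of its control mean, taken over the 2 CTRL mice, in the VA-free libraries. Of the CTRL libraries, 1A had the median member at 125%, 1B at 129%, 2A at 56.4% and 2B at 85.6%. The upper quartile of the members was 2.94 to 3.83 times the lower quartile within a VA-free library, against 1.17 to 1.19 times in the mouse 1 CTRL libraries, 1.37 times in CTRL 2B and 1.85 times in CTRL 2A. The control mean contains the CTRL libraries themselves, which narrows their spread. In VA-free 2A 33 members were below their control mean, and in the other VA-free libraries 34 were.

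**Figure D3:**
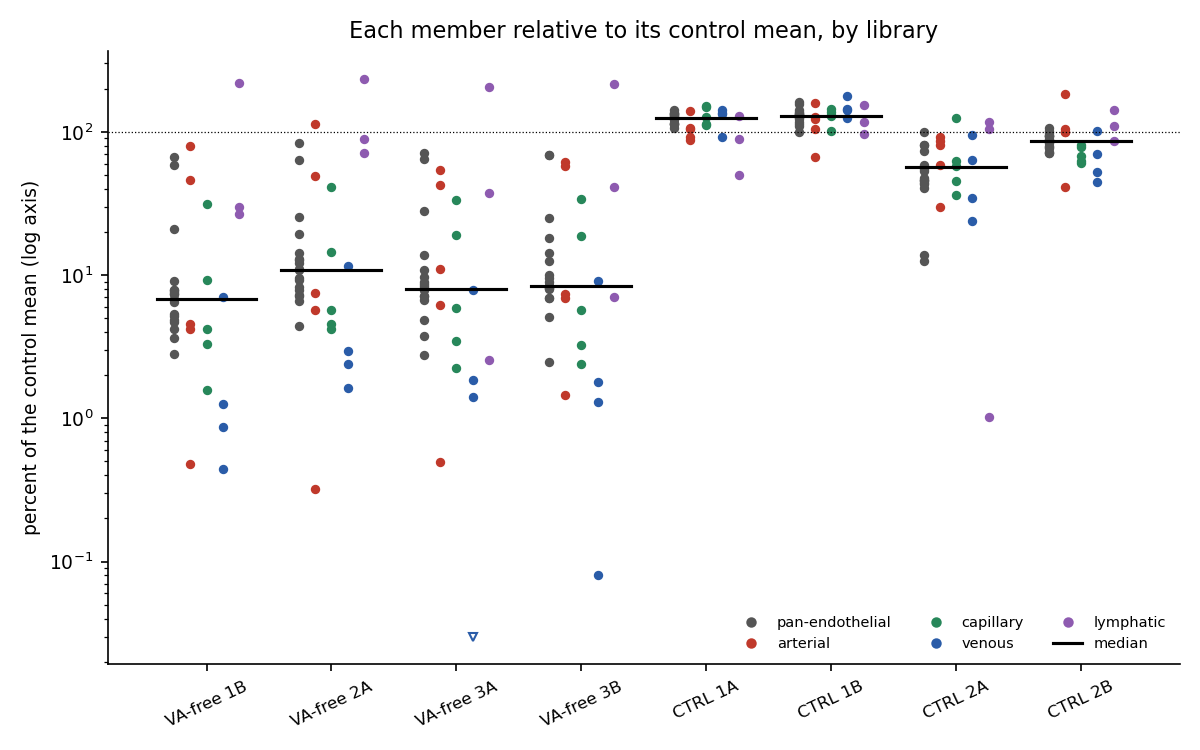
Each of the 35 members as a percentage of its mean over the 2 CTRL mice (y axis, log scale) in the 8 libraries (x axis), colored by class, with the median as a black bar and a dotted line at 100%. The medians of the VA-free libraries lie between 6.81% and 10.9%, and the venous genes Ackr1, Selp and Sele lie below them. Vwf lies just above them except in VA-free 3A (7.82% against 7.95%). Ackr1 in VA-free 3A (0 counts) is an open triangle at the bottom.

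Ratios of the estimated counts of members within a library do not depend on library scaling, and their ranges over the libraries are given without a test. Selp to Vwf was 0.301, 0.237, 0.306 and 0.333 in the VA-free libraries, in the order above, and 2.49, 1.34, 4.51 and 0.880 in the CTRL libraries. These ranges did not overlap. Selp to Pecam1 was 0.152 to 0.198 on the VA-free diet and 0.620 to 1.01 on CTRL chow, and Fabp4 to Pecam1 was 1.17 to 1.48 and 1.89 to 3.27, also without overlap. Gkn3 to Gja4, both arterial, was 0.0559 to 0.274 and 0.513 to 1.68. By contrast Sele to Selp (0.0998 to 0.264 and 0.0789 to 0.192), Gja5 to Gja4 (0.643 to 1.25 and 0.997 to 1.34), Gja4 to Pecam1 (0.0473 to 0.0962 and 0.0589 to 0.106) and Kdr to Flt1 (1.69 to 2.61 and 1.40 to 1.97) overlapped between the diets. Tie1 to Tek was 0.116 to 0.185 on the VA-free diet and 0.967 to 1.45 in 3 CTRL libraries, with 0.124 in CTRL 2A. Ackr1 to Gkn3 was steady in the CTRL libraries, at 2.14, 2.23, 2.31 and 2.42, and ranged from 0 to 16.5 in the VA-free ones, where both genes rest on few counts.

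The mice of one diet, a comparison that did not choose the members, differed as well. On CTRL chow 33 of the 35 members were higher in mouse 1 than in mouse 2 (54.5% of all genes), with a median log2 ratio of 0.99, or 1.98-fold, and a range from -0.58 for Hey2 to 1.53 for Fabp4. Mouse 2 includes CTRL 2A, and against CTRL 2B alone 32 members were higher in mouse 1 (53.7% of all genes), with a median log2 ratio of 0.67. On the VA-free diet 24 members were highest in mouse 2 (33% of all genes) and 11 in mouse 3 (32.6% of all genes). The highest VA-free mouse was above the lowest by a median of 1.61-fold, from a log2 ratio of 0.13 for Efnb2 to 5.80 for Ackr1.

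Technical replicates A and B of a mouse came from the same sorted lysate and so differ only by steps after the sort. Ratios were summarized over genes with a mean of at least 10 counts in the pair, which 33 members reached in VA-free mouse 3 and all 35 in each CTRL mouse. The median absolute log2 ratio of library A to B over these members was 0.18 in VA-free mouse 3 and 0.13 in CTRL mouse 1. In CTRL mouse 2 it was 0.65, and 0.70 over all genes. In CTRL mouse 2 the libraries differed by more than 2-fold for 13 of the 35 members and for 34.7% of all genes. The members lowest in CTRL 2A relative to 2B were Flt4 (log2 ratio -6.28; 3 against 468 counts), Robo4 (-2.96), Tie1 (-2.87) and Vwf (-2.09). Gkn3 (1.16), Ackr1 (1.09) and Rgcc (1.04) were higher in CTRL 2A. Over the 35 members, which share these libraries, Spearman's correlation of this ratio was -0.37 with transcript length and -0.22 with GC content, and over all genes -0.29 and -0.33. The diet log2 fold change correlated with transcript length at 0.50 over the members and 0.34 over all genes. With GC content it correlated at -0.04 and 0.04. The part of length was examined by removing its trend. In that fit 30 members were called lower with a median of -3.75, where 17.3% of all genes were called lower. Removing the trend moved the fold of 9 members by more than 1.5 times. Gkn3 (-6.58), Fabp4 (-4.08), Ly6c1 (-3.50), Rgcc (-0.80) and Prox1 (0.58) came closer to 0, and Kdr (-3.78), Ptprb (-4.02), Vwf (-4.06) and Flt4 (-1.50) moved away from it.

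**Figure D4:**
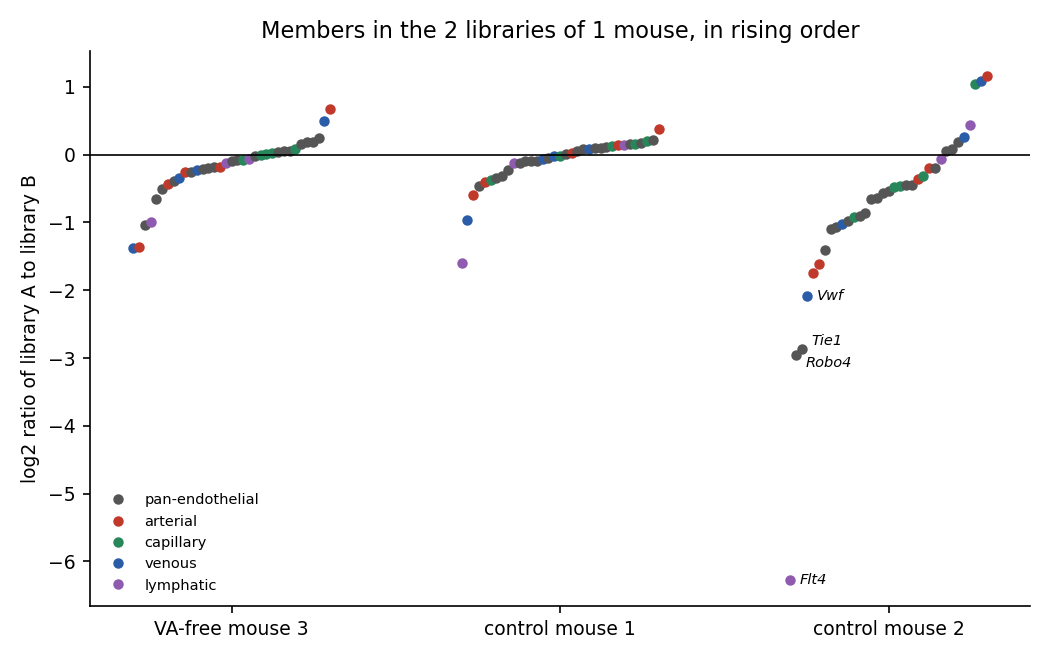
Log2 ratio of library A to library B (y axis) for each of the 35 members, in the 3 mice with both libraries (x axis), drawn in rising order and colored by class. In VA-free mouse 3, Ackr1 (-1.38, from 0 and 4 counts) and Lyve1 (-0.99, from 3 and 9 counts) rest on few counts. Most members of VA-free mouse 3 and CTRL mouse 1 lie near 0, whereas CTRL mouse 2 spans from -6.28 (Flt4) to 1.16 (Gkn3).

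Flt1 allowed a look at isoforms, since one of its transcripts encodes a shorter, secreted receptor that binds VEGF without signaling. Flt1-202 codes for 1333 residues and Flt1-203 for 688. Of all Flt1 counts, Flt1-203 took 28.9% to 35.2% in the VA-free libraries and 28.2% to 32.0% in the CTRL libraries, and Flt1-202 took 16.5% to 32.2% and 27.3% to 39.5%. The noncoding Flt1-201 took 35.0% to 51.7% and 27.6% to 44.1%. All these ranges overlapped, so no difference in isoform use between the diets was larger than the spread between libraries, and the single-end reads of 75 bases were assigned to isoforms by estimation.

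Endothelial genes outside the panel were read from lists written with these results known, beside the 22.5% of all genes called lower and the 18.9% called higher. Of 26 further pan-endothelial genes 25 were called lower (median log2 fold change -3.15), and none higher. The most abundant were Ramp2, a receptor partner for adrenomedullin (-1.21), Ecscr, an endothelial surface protein (-4.78), and Ctla2a (-4.84). Of 13 further arterial genes 10 were called lower (median -1.52), among them Fbln5 (-3.58), an elastic fiber protein, Alpl (-1.07) and Cxcl12 (-0.67). Of 11 further capillary genes 9 were called lower and 1 higher (median -3.36). Cd36, the fatty acid receptor, was at -3.46 and Gpihbp1, which anchors lipoprotein lipase on capillaries, at -4.24, while Lpl itself was at 0.02. Of 9 further venous genes 5 were called lower and 1 higher (median -1.20). Lrg1, a glycoprotein of venules, had the lowest log2 fold change of that list at -6.08, with 262 CPM (SD 61.5) in the CTRL mice and 3.93 CPM (SD 2.04) in the VA-free mice. Icam1 was at -2.60, and Vcam1, an adhesion molecule that MuSCs also make, was higher at 0.73. The 6 further lymphatic genes had 7 annotated loci, since Ccl21a is annotated both on chromosome 4 and on a scaffold, and counts of such copies are uncertain. Of the 7 loci 5 were called lower (median -2.61), both of Ccl21a among them, which is 4 of the 6 genes. The chromosome 4 copy of Ccl21a was at -4.11, Nrp2 at -2.56 and Pdpn at 0.09.

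Ligands of the endothelial receptors differed in both directions. Of 8 ligands for the VEGF, TIE2 and ROBO receptors, 2 were called lower and 1 higher, with a median log2 fold change of 0.01. These shares lie near the 22.5% and 18.9% of all genes called lower and higher. Angpt2, the TIE2 ligand that endothelial cells themselves store, was at -3.49, and Slit3 at -2.83. Vegfb, Pgf, Angpt1 and Slit2 were at 100% to 119% of the control level and Vegfd at 52.3%, none of them called. Vegfc, the ligand of Flt4, which stood in the list of further arterial genes, was called lower at -1.52, with 16.7 CPM in the VA-free mice and 47.9 CPM in the CTRL mice. Vegfa, the main ligand of Kdr, was higher at 0.54, at a mean of 163 CPM (SD 8.87) in the VA-free mice and 112 CPM (SD 29.1) in the CTRL mice.

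Markers of other cell types were read beside the panel, against the 22.5% of all genes called lower. Pericyte and smooth muscle markers, cells that wrap the endothelium, were called lower for 7 of 11 and higher for 1, with summed levels of 1733 to 2020 CPM on the VA-free diet and 2785 to 3394 CPM on CTRL chow. The list ran from Rgs5, a pericyte gene, at a log2 fold change of -6.11, within the range of the venous members, to Notch3, higher at 2.78. Acta2, the most abundant (-0.36), Cspg4 (0.40) and Abcc9 (-0.60) were not called, and Tagln was lower at -0.73. Of the VA-free sums, Acta2 held 587 to 857 CPM and Notch3 607 to 973 CPM, so these 2 genes dominate them. Erythroid markers were called lower for 4 of 5 tested, at 28.8 to 243 CPM against 1302 to 1909 CPM. Macrophage markers were called lower for 3 of 10, near that share, at 24.0 to 147 CPM against 175 to 891 CPM. Markers of fibro-adipogenic progenitors were called lower for 7 of 10, at 6462 to 7494 CPM against 7794 to 8816 CPM, sums that Gsn dominates. The part of these cell types in the endothelial result was not tested.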

How the data were processed

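RNA-Seq was read from 8 libraries of sorted MuSCs, 4 from 3 VA-free mice and 4 from 2 CTRL mice. The authors pseudo-aligned 75 bp single-end reads to the Ensembl release 96 transcriptome of GRCm38 with kallisto 0.46.2, per the submitters' processing notes, and deposited estimated counts and TPM for each transcript and library, without normalization between libraries. The deposited TPM are scaled to the same total in each library and so keep no depth.

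Estimated counts of 116816 of 118489 transcripts were added per gene, then over libraries A and B of each animal, and rounded; transcripts with no gene held 0.647% to 0.756% of a library's counts and were left out. The 5 mice were fitted over 17997 genes with edgeR 4.0.16 in R 4.3.3 (TMM factors, filterByExpr, the quasi-likelihood F test with Benjamini-Hochberg adjusted p-values, called under 0.05), as a test suited to estimated counts, with DESeq2 1.42.0 and limma 3.58.1 (log2 of TPM plus 1 or 0.1) among the alternatives. The script was tested on simulated data. A standard error is the log2 fold change divided by the square root of its F. CPM are TMM-normalized, and 95% intervals and count floors cover the error of these samples only. With 2 CTRL mice, the spread on that diet is a single difference between animals.

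The members, the gene lists and the rules were chosen with earlier results of these data known. Values in every library are given for up to 4 members of a class (8 for the pan-endothelial class) with the highest mean TPM. They are also given for the 3 members with the lowest and the 3 with the highest log2 fold change. Of each further endothelial list, up to 3 genes with the highest mean TPM were named with their log2 fold change. Other genes were named after their values were seen. The common value was the precision-weighted mean of the members' log2 fold changes. Gene positions come from the GENCODE annotation that matches Ensembl 96 and promoters from RefSeq.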

Additional observations from a re-analysis of the deposited data

Results flagged for a closer look

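In groups of 4 libraries, a library was singled out where its gap to the nearest other library exceeded Dixon's 95% critical share of the range; chance does this for about 1 in 20 groups, and it happened in 4 of 70. Emcn was at 7.38 CPM in VA-free 2A and at 4.13 to 4.67 CPM in the other VA-free libraries. Gkn3 was at 0.644 CPM in VA-free 3B, from 32 counts, and at 0.143 to 0.220 CPM in the others. Gja4 was at 27.7 CPM in CTRL 2A against 35.7 to 36.7 CPM in the other CTRL libraries. Ly6c1 was at 23.2 CPM in VA-free 1B against 31.9 to 32.5 CPM in the other VA-free libraries. Each of these libraries stayed on its own diet's side of the other diet's range.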

How the results depend on the processing

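Under 20 alternatives the 35 members gave 700 values, of which 670 kept direction and call, 16 lost a call, 7 gained one and 7 changed sign; 26 members kept both throughout. The number of members called lower (30) was 27 with the first library of each mouse (17.7% of all genes), 28 with TPM (14.7% and 14.6%), 31 with DESeq2 (25%) and 26 to 32 when 1 mouse or library was left out (15.1% to 22.8%), against 22.5% of all genes. The number of members whose interval included the common value (4) was 7 with 8 libraries as separate samples, 11 with the first library of each mouse, 10 with the replicate number as a block, and 3 to 9 when 1 mouse or library was left out; the cause was not tested. Same-numbered mice did not deviate together (correlations -0.022 and 0.00583), and the block changed no member's call. Cav1 changed sign to 0.15 with TPM and a pseudocount of 1 and to 0.15 with 0.1, where the median of all genes was shifted by 0.192 and 0.354, so that Cav1 stayed below that median. Hey2 changed sign to 0.10 and 0.15 with the same settings, to 0.20 with the first library of each mouse, to 0.07 without CTRL mouse 2 and to 0.32 without CTRL 2B, and ranged from -0.64 to 0.32 when 1 mouse or library was left out. TPM with a pseudocount of 1 also made differences of low genes smaller, as for Gkn3 (-5.47) and Sele (-3.97), and the first library of each mouse gave -2.73 for Vwf and -8.02 for Gkn3. Genes with few counts on the VA-free diet, such as Ackr1, Gkn3 and Lyve1, are limited by depth.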
